A study of Mus musculus with 8 samples.

Results

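The Notch pathway was followed through 10 genes in mouse embryonic hearts: the ligands *Dll4* and *Jag1*, the receptors *Notch1* and *Notch2*, the nuclear factor *Rbpj*, and the target genes *Hes1*, *Hey1*, *Hey2*, *Heyl* and *Nrarp*. They were taken by name from the table of transcript levels, and all 10 were found among its 24385 features. RNA was sequenced from whole hearts at embryonic day 8.5 (E8.5) and E9.5, with 2 libraries for each stage and genotype, 8 in all. All embryos are labelled with the C57BL/6 background. The controls are labelled wild type (WT) and, by the study's description, carried loxP-flanked *Dgcr8* alleles, a *Rosa26* mT/mG reporter and no Cre. The knockouts (cKO), labelled Mesp1Cre/+; Dgcr8-/-, carried the same reporter and a Cre recombinase expressed from *Mesp1*, a gene of the earliest cardiovascular progenitors. *Dgcr8* encodes the partner of the nuclease Drosha in the step that releases microRNA (miRNA) hairpins, so that its loss stops the production of most miRNAs. The deletion covers the *Mesp1* lineage, which includes muscle and endocardium, and the Cre allele itself cannot be told apart from the loss of *Dgcr8*. The sources used here do not say how many embryos entered a library, so replicate spread may be partly technical.

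Notch signalling passes between touching cells. A ligand of the Delta-like or Jagged family on a cell binds a Notch receptor on its neighbour, the receptor is cut by an ADAM protease and by gamma-secretase, and the freed intracellular part joins RBPJ in the nucleus to switch on genes of the HES and HEY repressor families and *Nrarp*, which in turn dampens the signal. In the early heart the ligand DLL4 and the receptor NOTCH1 act mainly in the endocardium, the inner endothelial layer that signals to the muscle during trabeculation and valve formation. HEY1 and HEY2 mark the atrial and the ventricular muscle, respectively.

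Sequences of the miRNA side of the comparison are shown first, since *Dgcr8* acts in miRNA processing. The 5 miRNAs were chosen from the study's subject (miR-541-5p) and general knowledge, their levels were not measured in these libraries, and capitals mark the seed, bases 2 to 8. The study sequenced miRNAs of E9.5 WT hearts separately. Its printed list of the most abundant ones holds the others shown here but not miR-34a-5p. Sequences and positions are those of RefSeq (GRCm38.p6).
miR-541-5p (chr12:109742422-109742446, plus strand): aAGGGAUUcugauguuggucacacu
miR-126a-3p (chr2:26591402-26591423, plus strand): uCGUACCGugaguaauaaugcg
miR-26a-5p (chr9:119031811-119031832, plus strand): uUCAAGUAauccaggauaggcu
miR-30a-5p (chr1:23272274-23272295, plus strand): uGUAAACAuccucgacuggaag
miR-34a-5p (chr4:150068473-150068494, plus strand): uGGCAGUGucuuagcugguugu
No seed is shared among the 5.

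The complement of each seed was searched in the 3′ untranslated regions of the GENCODE vM1 transcripts, for all 10 genes and for 19143 genes in all. The miR-34a-5p match lay in *Jag1*, *Notch1*, *Notch2*, *Rbpj* and *Heyl*, and 13.8% of all genes held it. The miR-30a-5p match lay in *Dll4*, *Rbpj* and *Heyl* (12.7% of all genes), the miR-26a-5p match in *Jag1* (8.67%) and the miR-541-5p match in *Heyl* (7.26%). The miR-126a-3p match lay in 0 of the 10 genes and in 0.199% of all genes. The sites of the ligands, and those for miR-541-5p, the miRNA the study is about, are printed with the seed match in capitals.
*Dll4*, miR-30a-5p, from base 59 of a 1329-base region: ttccttctgcatTGTTTACatt
*Jag1*, miR-26a-5p, from base 1293 of 1568: aagctagttgaaTACTTGAacc
*Jag1*, miR-34a-5p, from base 1347 of 1568: tgccgtagagtaCACTGCCtgc
*Heyl*, miR-541-5p, from base 1027 of 3245: agcaccctggctAATCCCTggc
*Heyl*, miR-541-5p, from base 2877 of 3245: tgggcatgtgacAATCCCTggg
A match describes letters and does not show that a miRNA acted there. The shares of all genes were not matched for the length of the region, which was 1568 to 3825 bases in the 5 genes with a miR-34a-5p match. They are therefore no test of enrichment.

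The promoters of *Dll4* and *Nrarp* are shown because in both genes cKO lay below WT at E8.5 and above WT at E9.5. That of *Hey2* is shown because it held the longer RBPJ word 2 times. Each window of 300 bases spans the start, as given by RefSeq on GRCm38.p6. Capitals mark TGGGAA or its reverse complement (the core word bound by RBPJ) and CACGTG (an E-box word bound by HES and HEY proteins, among many others).
*Dll4*, chr2:119325534-119325833, plus strand: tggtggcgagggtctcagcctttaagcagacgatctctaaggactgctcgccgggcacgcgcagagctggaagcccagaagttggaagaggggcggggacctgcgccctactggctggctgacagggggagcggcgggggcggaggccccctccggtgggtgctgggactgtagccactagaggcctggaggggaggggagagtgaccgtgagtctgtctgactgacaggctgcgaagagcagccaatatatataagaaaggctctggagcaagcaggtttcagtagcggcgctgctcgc
*Nrarp*, chr2:25180508-25180807, plus strand: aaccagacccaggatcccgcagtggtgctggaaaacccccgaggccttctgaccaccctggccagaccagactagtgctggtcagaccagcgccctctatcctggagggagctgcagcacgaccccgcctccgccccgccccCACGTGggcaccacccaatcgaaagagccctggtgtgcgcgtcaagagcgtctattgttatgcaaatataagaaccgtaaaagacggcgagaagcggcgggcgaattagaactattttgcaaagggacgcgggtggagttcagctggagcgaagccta
*Hey2*, chr10:30842734-30843033, minus strand: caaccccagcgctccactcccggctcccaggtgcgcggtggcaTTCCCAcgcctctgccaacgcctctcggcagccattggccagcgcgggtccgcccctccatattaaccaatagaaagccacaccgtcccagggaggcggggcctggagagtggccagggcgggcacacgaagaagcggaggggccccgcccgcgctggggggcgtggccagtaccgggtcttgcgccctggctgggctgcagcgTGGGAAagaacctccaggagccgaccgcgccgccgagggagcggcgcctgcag
Of 32851 RefSeq promoters of the same length, 25.6% held TGGGAA on either strand and 7.15% held CACGTG. The longer word GTGGGAA, which contains the core, was in 6.38% of promoters and at least 2 times in 0.256%. In *Hey2* it began at -207 on the minus strand and at -4 on the plus strand, counted from the start along the gene. The windows of *Jag1*, *Notch1* and *Notch2* held neither capitalised word, and those of *Rbpj* held the core. The HEY-type word CACGCG and the HES-type word CACNAG (N for any base) were searched too and are not marked. CACGCG (9.27% of promoters) was in *Dll4*, *Jag1* and *Notch2*. CACNAG (42.5%) was in *Dll4*, *Notch1*, *Notch2* and *Nrarp*. *Hes1*, *Hey1* and *Heyl* had no entry in the promoter table.

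Levels were in FPKM, a count of fragments per kilobase of transcript divided by library size, so that levels of different genes can be set beside each other. Summed FPKM per library lay between 884018 and 1944596, and relative sequencing depth between 1 and 1.45 times that of E8.5 WT replicate 1, which was estimated to hold 12900000 fragments. Testing covered the 10018 genes that averaged 1 FPKM or more, with limma on log2(FPKM + 1). Calls required an adjusted p under 0.05 (Benjamini-Hochberg, over all 10018) and at least a 1.5-fold change. *Dll4*, *Jag1*, *Notch1*, *Rbpj*, *Hes1*, *Hey1* and *Hey2* passed this filter. *Notch2*, *Heyl* and *Nrarp* did not, so their fitted values come from the same model run without it. The targeted gene *Dgcr8* (chr16:18253965-18289168) measured 7.10 and 8.60 FPKM in WT and 1.64 and 4.67 in cKO hearts at E8.5, and 3.49 and 3.23 in WT and 1.15 and 1.77 in cKO hearts at E9.5. It was lower in cKO at both stages with no overlap, although neither difference was called (adjusted p = 0.590 and 0.317). The libraries were not alike in other cells: 6 decidual markers, which belong to the uterus, summed to 5152 FPKM in E8.5 cKO replicate 2, against 12.9 in replicate 1, 468 and 1162 in E8.5 WT, and 1.99 to 8.46 at E9.5. For the 10 genes, differences between genotypes at E8.5 are therefore also given without that library, and for *Dgcr8* that value was -1.74. Such a value rests on cKO replicate 1 alone. With 12.9 FPKM of decidual markers against 468 and 1162 in WT, it turns the difference in decidual RNA around and does not remove it. In that replicate 10 yolk sac endoderm markers summed to 7043 FPKM, against 782 and 2691 in WT. Heart markers matched the labelled tissue, with 15 cardiomyocyte genes summing to between 27120 and 85420 FPKM. At E9.5 these sums were 63805 and 62559 in WT and 85420 and 85065 in cKO. Of the 15, 6 were higher and 2 lower in cKO with no overlap, beside 21.0% higher and 31.1% lower among all tested genes. Their part in the E9.5 differences was not tested. In bulk RNA, fewer cells of a type and less RNA per cell cannot be told apart.

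Within WT hearts at E8.5, *Hey1* was the most abundant of the 10 genes (18.5 and 31.2 FPKM) and *Heyl* the least (0.0833 and 0.0837). *Rbpj*, *Dll4* and *Jag1* followed *Hey1* in that order, with means of 9.57, 6.14 and 5.04 FPKM whose libraries did not overlap from a gene to the next. The ranges of *Hey2* and *Hes1* overlapped, and so did those of *Notch1* and *Nrarp*. *Hey1* stood first in all 4 groups. The second place passed from *Rbpj* (3.45 FPKM, E9.5 WT) to *Dll4* (3.60 FPKM) in E9.5 cKO, where *Rbpj* had rank 4 with 1.83 FPKM and overlapped *Notch1*. *Nrarp* ranked eighth in E8.5 WT and last in E9.5 WT (mean 0.170 FPKM).

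**Figure D1:**
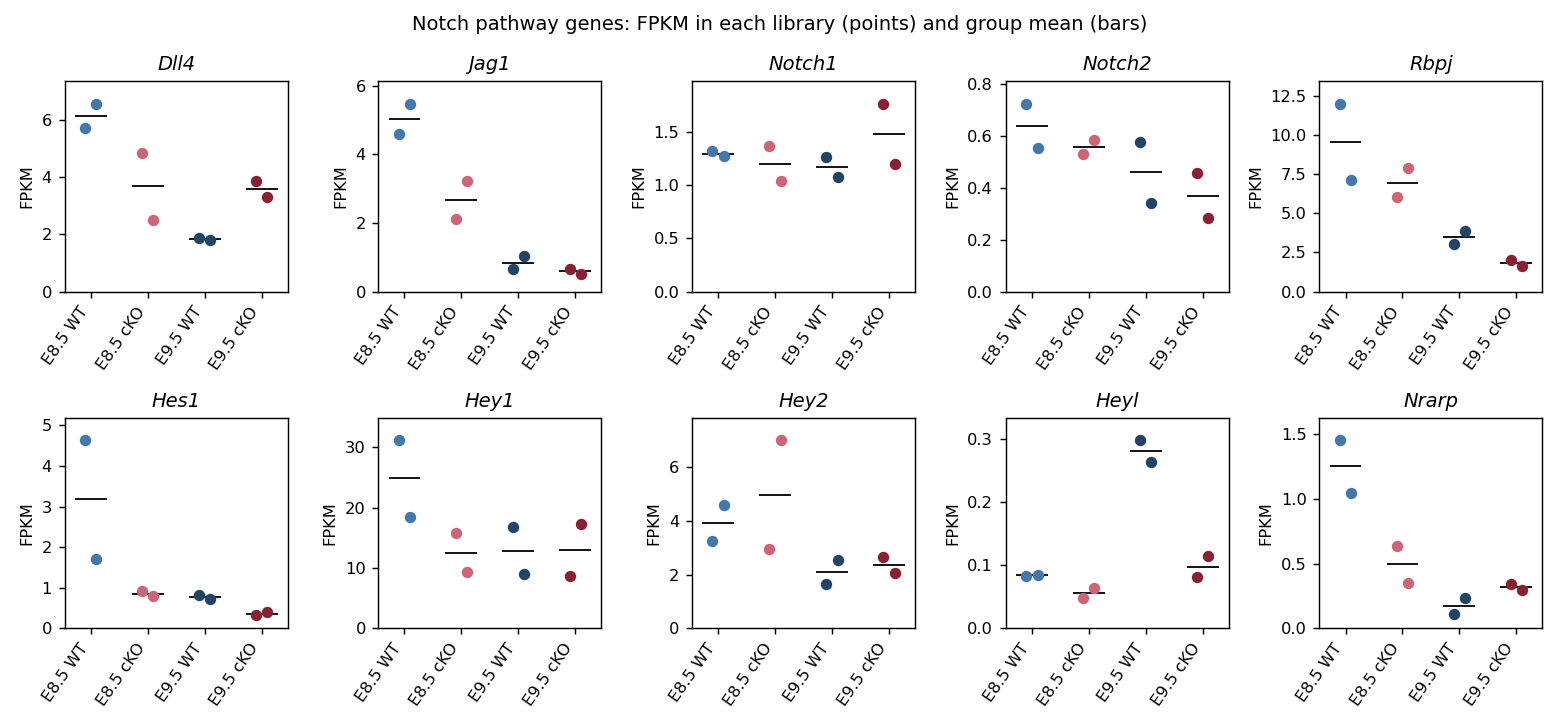
FPKM of the 10 genes (vertical axes, linear from 0, a separate scale for each gene) in the 4 groups. Points are libraries and bars are means of 2. *Dll4* and *Nrarp* are lower in both cKO libraries than in WT at E8.5 and higher at E9.5, and *Heyl* stands out in E9.5 WT.

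The ligand DLL4 drives Notch activity in endothelium. Its gene (chr2:119325784-119335666) measured 5.70 and 6.57 FPKM in WT and 4.85 and 2.50 in cKO hearts at E8.5. At E9.5 it measured 1.88 and 1.79 FPKM in WT, and 3.88 and 3.31 in cKO. The groups did not overlap at either stage, with cKO lower at E8.5 and higher at E9.5, where the ratio of the means was 1.96. On the log2 scale the difference was -0.66 (SE 0.29, adjusted p = 0.590) at E8.5 and 0.69 (SE 0.29, unadjusted p = 0.0414, adjusted p = 0.298) at E9.5, so that neither was called. The difference between the stages, tested as an interaction in limma, was 1.35 (SE 0.40, unadjusted p = 0.0103, adjusted p = 0.551). Without the E8.5 cKO library rich in decidual RNA, the E8.5 difference was -0.28 (adjusted p = 0.685) and the interaction 0.98, each in the same direction. The E8.5 difference was -1.03 (adjusted p = 0.107) without the other cKO library, and -0.34 and -0.38 when libraries were scaled by median ratios and by quantiles. The values correspond to an estimated 102 to 442 fragments per library.

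Endothelial markers moved with *Dll4* at E9.5. The 18 genes summed to 333 and 267 FPKM in WT and 505 and 457 in cKO, and 11 of them were higher in cKO with no overlap while 2 were lower, beside 21.0% higher and 31.1% lower among all tested genes. At E8.5 the sums were 417 and 463 in WT and 526 and 269 in cKO, with 0 higher and 6 lower, beside 40.1% lower among all tested genes. None of the 18 was at 0 in all libraries. Per 1000 FPKM of these markers, *Dll4* measured 13.7 and 14.2 in WT and 9.21 and 9.29 in cKO hearts at E8.5, and 5.66 and 6.71 in WT and 7.68 and 7.26 in cKO hearts at E9.5. On this within-library scale the genotypes again did not overlap at either stage, and the distance at E9.5 was smaller than in FPKM. Their part in the *Dll4* values was not tested otherwise. The 4 endocardial markers summed to 11.9 and 14.2 FPKM in WT and 11.5 and 10.6 in cKO hearts at E9.5.

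**Figure D2:**
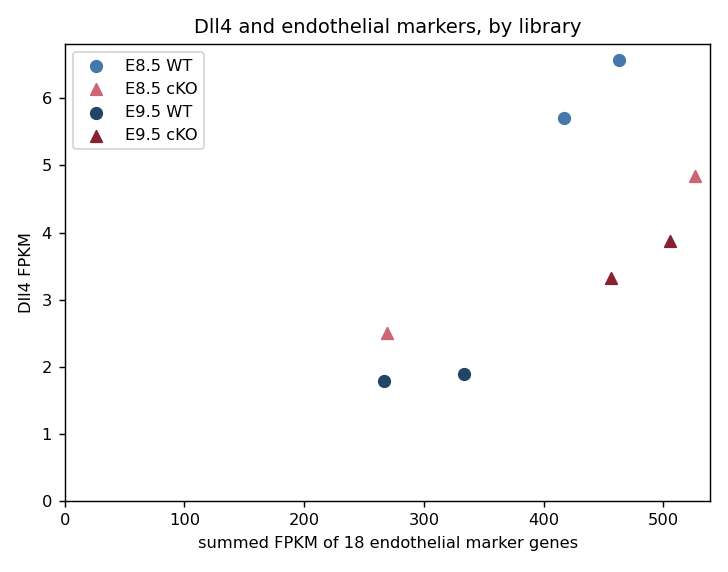
*Dll4* FPKM (vertical axis) against the summed FPKM of 18 endothelial marker genes (horizontal axis), both linear from 0. Each point is a library. The E9.5 cKO libraries lie at 505 and 457 FPKM of markers and above the E9.5 WT libraries on both axes.

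The ligand JAG1 is best known in the heart for outflow tract and valve formation. *Jag1* (chr2:137081451-137116520) measured 4.6 and 5.48 FPKM in WT and 2.13 and 3.23 in cKO hearts at E8.5. At E9.5 it measured 0.657 and 1.02 FPKM in WT and 0.664 and 0.517 in cKO. The genotypes were apart at E8.5 and overlapped at E9.5. The E8.5 difference was -0.73 on the log2 scale (SE 0.25, unadjusted p = 0.0200, adjusted p = 0.590), and -0.95 (adjusted p = 0.336) without the library rich in decidual RNA. At E9.5 it was -0.20 (SE 0.25, adjusted p = 0.770), and ran from -0.35 without WT replicate 1 to -0.06 without WT replicate 2. Within a library, *Dll4* was 1.24 and 1.20 times *Jag1* in WT and 2.28 and 0.773 in cKO hearts at E8.5, and 2.87 and 1.75 in WT and 5.84 and 6.42 in cKO hearts at E9.5. The balance of the ligands lay farther towards *Dll4* in both E9.5 cKO libraries than in any other.

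Both receptors were low. *Notch1* (chr2:26457902-26503822), the main endocardial receptor, measured 1.32 and 1.27 FPKM in WT and 1.37 and 1.04 in cKO hearts at E8.5, and 1.27 and 1.08 in WT and 1.77 and 1.19 in cKO hearts at E9.5. The genotypes overlapped at both stages. Its log2 difference was -0.06 (SE 0.23, adjusted p = 0.923) at E8.5, where median-ratio scaling and quantile normalization gave it the opposite sign, as did leaving out the library rich in decidual RNA (0.0463), and 0.18 (SE 0.23, adjusted p = 0.777) at E9.5, with 0.0153 without cKO replicate 1, 0.119 without WT replicate 2 and 0.349 without cKO replicate 2. Per 1000 FPKM of endothelial markers, *Notch1* was lower in cKO at E9.5 with no overlap, at 3.81 and 4.05 in WT and 3.50 and 2.62 in cKO. On that scale *Jag1*, *Notch2*, *Rbpj*, *Hes1* and *Heyl* were lower with no overlap too, *Dll4* was higher, and *Hey1*, *Hey2* and *Nrarp* overlapped. The marker sum it divides by was itself higher in cKO at E9.5. *Notch2* (chr3:98013538-98150367) lay between 0.281 and 0.723 FPKM in all 8 libraries and its genotypes also overlapped at both stages. In cKO hearts *Notch2* measured 0.528 and 0.584 FPKM at E8.5 and 0.455 and 0.281 at E9.5, lower with no overlap, as were 6282 of the 10018 tested genes. Its log2 differences were -0.07 (SE 0.13) at E8.5, -0.0973 without the library rich in decidual RNA, and -0.09 (SE 0.13) at E9.5. *Notch1* exceeded *Notch2* in every library, by 1.77 to 4.25 times, and the highest ratios, 3.88 and 4.25, were those of E9.5 cKO.

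RBPJ is the DNA-binding protein through which all Notch receptors act, and it represses the same genes when no receptor fragment is bound. *Rbpj* (chr5:53555779-53657445) measured 12 and 7.14 FPKM in WT and 6.02 and 7.88 in cKO hearts at E8.5, which overlapped (-0.38, and -0.55 without the library rich in decidual RNA, -0.04 without WT replicate 1, -0.72 without WT replicate 2 and -0.21 without cKO replicate 1). At E9.5 it measured 3.04 and 3.86 FPKM in WT and 2.04 and 1.61 in cKO, with both cKO libraries below both WT libraries. The E9.5 difference was -0.65 on the log2 scale (SE 0.30, adjusted p = 0.334) and was not called. *Dll4* and *Rbpj* lay on opposite sides of WT in the same E9.5 cKO libraries.

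HES1 is a repressor that answers Notch and other signals in progenitor cells. *Hes1* (chr16:30065357-30067796) measured 4.63 and 1.72 FPKM in WT and 0.922 and 0.784 in cKO hearts at E8.5. At E9.5 it measured 0.828 and 0.718 FPKM in WT and 0.329 and 0.394 in cKO. *Hes1* was lower in cKO at both stages, with no overlap. The difference was -1.08 on the log2 scale (SE 0.34, unadjusted p = 0.0124, adjusted p = 0.590) at E8.5 and -0.38 (SE 0.34, adjusted p = 0.657) at E9.5. With 0.1 FPKM added in place of 1 the values were -1.63 and -0.92 (adjusted p = 0.669 and 0.442). E8.5 WT replicate 1 held much of the first value: without it the difference was -0.55, and without the library rich in decidual RNA it was -1.03. The values rest on an estimated 8 to 88 fragments. The 10 neural and neural crest markers summed to 54.0 and 75.9 FPKM in WT and 27.2 and 38.4 in cKO hearts at E8.5, and 10.9 and 9.96 in WT and 7.82 and 6.96 in cKO hearts at E9.5. At E8.5, 3 of the 10 were lower in cKO with no overlap, at E9.5 4 were, beside 40.1% and 31.1% of all tested genes, and *Foxd3* was at 0 in every library. Their part in the *Hes1*, *Jag1* and *Nrarp* values was not tested.

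HEY1 and HEY2 are related repressors that divide the heart tube between atrial and ventricular identity. *Hey1* (chr3:8663359-8667038) measured 31.2 and 18.5 FPKM in WT and 15.8 and 9.31 in cKO hearts at E8.5, and 16.8 and 8.96 in WT and 8.61 and 17.2 in cKO hearts at E9.5. The cKO libraries were lower at E8.5, and at E9.5 the genotypes overlapped almost fully, with means of 12.9 FPKM in both. The E8.5 difference was -0.93 (SE 0.46, adjusted p = 0.590), -0.58 without the library rich in decidual RNA and -0.57 without WT replicate 1. At E9.5 the difference was -0.01 (SE 0.46) and turned to 0.10 once libraries were scaled by median ratios and to 0.11 by quantiles. *Hey2* (chr10:30832359-30842783) measured 3.24 and 4.59 FPKM in WT and 2.96 and 7.01 in cKO hearts at E8.5, and 1.66 and 2.56 in WT and 2.67 and 2.06 in cKO hearts at E9.5. Its genotypes overlapped at both stages, with log2 differences of 0.21 (SE 0.36) and 0.12 (SE 0.36). The E8.5 value became -0.30 without cKO replicate 2, the library with 7.01 FPKM.

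In all 8 libraries *Hey1* exceeded *Hey2*. The ratio ran from 1.33 times, in E8.5 cKO replicate 2, to 10.1 times, in E9.5 WT replicate 1. The log2 ratio of *Hey2* to *Hey1*, with 1 FPKM added to each, was -2.92 and -1.80 in WT and -2.08 and -0.36 in cKO hearts at E8.5, and -2.74 and -1.49 in WT and -1.39 and -2.57 in cKO hearts at E9.5. Replicates of a group differed by an SD of 0.946 on this scale, and the genotypes overlapped at both stages. The mean difference between cKO and WT was 1.14 at E8.5 and 0.13 at E9.5. Single libraries set both: the first was 0.284 without the library rich in decidual RNA and 1.999 without the other cKO library, and 0.581 without WT replicate 1. The second ran from -0.495 without WT replicate 1 to 0.761 without WT replicate 2, and from -0.457 to 0.723 without either cKO library.

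*Heyl*, the third HEY gene, had its own pattern. By its mean over the 8 libraries (0.129 FPKM) it was the scarcest of the 10, although *Nrarp* lay below it in E9.5 WT. *Heyl* (chr4:123233556-123249870) measured 0.0833 and 0.0837 FPKM in WT and 0.0484 and 0.0640 in cKO hearts at E8.5, and 0.298 and 0.264 in WT and 0.0812 and 0.114 in cKO hearts at E9.5. Its FPKM came in whole steps, so that the fragments could be recovered: 5 and 7, 4 and 4, 20 and 23, and 6 and 9, in the same order. The 95% exact Poisson interval, which covers counting error only, was 12.2 to 30.9 around the 20 fragments of E9.5 WT replicate 1 and 4.1 to 17.1 around the 9 of E9.5 cKO replicate 2. *Heyl* was higher in E9.5 WT than in each of the other groups, with no overlap between libraries, although these intervals overlapped. The E9.5 difference was -0.22 on the log2(FPKM + 1) scale (SE 0.03, unadjusted p = 0.000644, adjusted p = 0.206 over all genes without the filter), a scale that compresses a gene this low. At E8.5 it was -0.0369, and -0.0476 without the library rich in decidual RNA. With 0.1 FPKM added in place of 1, a choice made after seeing the data, the E9.5 difference was -0.95 (SE 0.24, adjusted p = 0.240) and the E8.5 difference -0.23. Epicardial markers moved with it at E9.5. All 7 were lower in cKO with no overlap, beside 31.1% of all tested genes, and summed to 42.7 and 25.9 FPKM in WT and 13.2 and 14.0 in cKO, and at E8.5 to 22.3 and 12.5 in WT and 10.5 and 15.4 in cKO. Their part in the *Heyl* values was not tested.

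NRARP is a feedback inhibitor that binds the receptor fragment and is often read as a gauge of Notch activity. *Nrarp* (chr2:25180758-25183332) measured 1.45 and 1.05 FPKM in WT and 0.640 and 0.352 in cKO hearts at E8.5, and 0.109 and 0.230 in WT and 0.346 and 0.30 in cKO hearts at E9.5. The fragments behind these values were 48 and 48, 29 and 12, 4 and 11, and 14 and 13. As for *Dll4*, both cKO libraries lay below WT at E8.5 and above WT at E9.5. Per 1000 FPKM of endothelial markers the E9.5 values of *Nrarp* overlapped, with 0.326 and 0.864 in WT and 0.685 and 0.656 in cKO. The difference was -0.59 (SE 0.15, unadjusted p = 0.00630, adjusted p = 0.470) at E8.5 and 0.18 (SE 0.15, adjusted p = 0.818) at E9.5. The interaction was 0.77 (SE 0.21, unadjusted p = 0.00916, adjusted p = 0.647). Without the library rich in decidual RNA, the E8.5 difference was -0.45 (adjusted p = 0.387) and the interaction 0.63 (adjusted p = 0.472). With 0.1 FPKM added in place of 1, the values over all 8 libraries were -1.21 at E8.5, 0.68 at E9.5 and 1.90 for the interaction (adjusted p = 0.700, 0.654 and 0.771). At E9.5 the Poisson intervals of 5.5 to 19.7 around 11 fragments in WT replicate 2 and 6.9 to 22.2 around 13 in cKO replicate 2 overlapped widely. Those of 1.1 to 10.2 around 4 in WT replicate 1 and 7.7 to 23.5 around 14 in cKO replicate 1 overlapped less. The E9.5 difference was thus not resolved, and the intervals cover counting error only. Whether depth or replicate spread limited it was not tested.

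**Figure D3:**
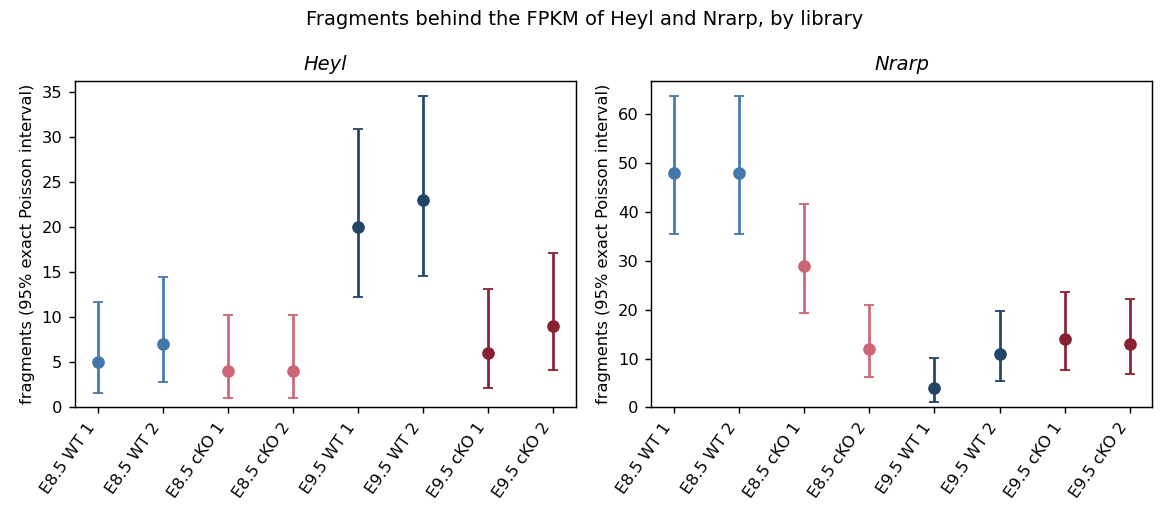
Fragments recovered for *Heyl* and *Nrarp* (vertical axes, linear from 0) in each library, with 95% exact Poisson intervals for counting error. *Heyl* reaches 20 and 23 fragments in E9.5 WT, and *Nrarp* 48 in both E8.5 WT libraries.

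Over the 10 genes, limma called 0 of the 7 tested in cKO against WT at E8.5, where 0.00998% of all tested genes were called in either direction. At E9.5 it called 0 of 7, against 0.180% of all genes, and 0 of 7 in the interaction, against 0.0399%. At an unadjusted p under 0.05 with a 1.5-fold change, *Jag1* and *Hes1* were lower at E8.5 (6.90% of all genes were, 691 in number) and *Dll4* was higher at E9.5 (5.08%), and *Dll4* alone of the 7 had an unadjusted p under 0.05 in the interaction, beside 7.18% of all tested genes. Scaling by median ratios or by quantiles took *Jag1* out of that count at E8.5 (-0.41 and -0.43, unadjusted p = 0.162 and 0.10), left *Hes1* in it (-0.76 in both), and lowered the number among all genes to 85 and 117. At E9.5 *Rbpj* entered as lower with quantiles (-0.68, limma unadjusted p = 0.0413) and with 0.1 FPKM added in place of 1 (-0.88, limma unadjusted p = 0.0320). Among all genes 714 and 1141 were lower in those fits. Libraries that did not overlap were counted as well. At E8.5, 4 of the 7 tested genes were lower in cKO in this sense, *Dll4*, *Jag1*, *Hes1* and *Hey1*, beside 40.1% of all tested genes, and *Heyl* and *Nrarp* below the filter were lower too. At E9.5, *Dll4* was higher (21.0% of all tested genes were) and *Rbpj* and *Hes1* were lower (31.1%), and below the filter *Nrarp* was higher and *Heyl* lower. The many lower genes at E8.5 came with a shift of the median gene, which was -0.28 on the log2 scale at E8.5 and -0.07 at E9.5. Relative to it, the E8.5 differences were -0.80 for *Hes1*, -0.65 for *Hey1*, -0.45 for *Jag1*, -0.37 for *Dll4*, -0.10 for *Rbpj*, 0.22 for *Notch1* and 0.49 for *Hey2*. The median of the 7, relative to the median gene, was -0.37 at E8.5 and 0.06 at E9.5.

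**Figure D4:**
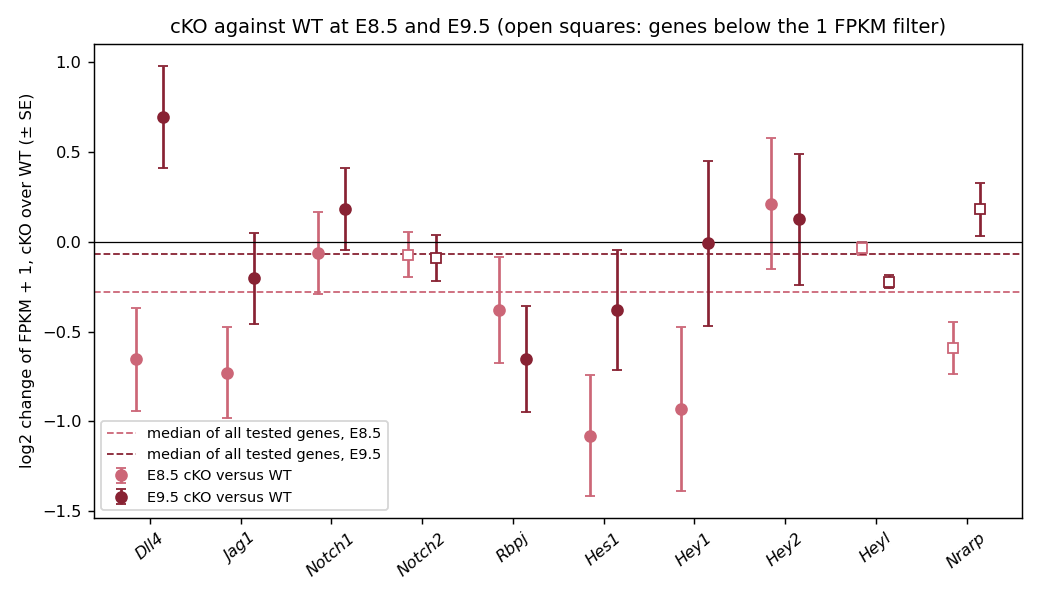
Log2 change of FPKM + 1 in cKO over WT (vertical axis, with SE from limma) for the 10 genes at E8.5 and E9.5. Filled circles are tested genes, open squares genes below 1 FPKM, and dashed lines the median of all tested genes (-0.28 at E8.5, -0.07 at E9.5). *Dll4* lies at -0.66 at E8.5 and 0.69 at E9.5.

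In WT hearts the ligands, *Rbpj* and *Hes1* fell in FPKM from E8.5 to E9.5. *Jag1* fell by 1.72 on the log2 scale (SE 0.25, adjusted p = 0.0109), *Dll4* by 1.33 (SE 0.29, adjusted p = 0.0149), *Rbpj* by 1.21 (SE 0.30, adjusted p = 0.0179) and *Hes1* by 1.14 (SE 0.34, adjusted p = 0.0283), so that 4 of the 7 were called lower in limma. The same was true of 46.7% of all tested genes (4683 lower and 140 higher), and the median gene fell by 0.84. When the libraries were scaled by median ratios the 4 differences were -1.03, -0.55, -0.37 and -0.54, and 0 of them were called, beside 69 lower and 321 higher among all tested genes. The calls also rested on single libraries: without E8.5 WT replicate 1 or E9.5 WT replicate 1, 0 of the 7 were called, and without E8.5 WT replicate 2, 1 was. In the same fits the count of lower genes among all 10018 fell to 28, 48 and 184. The sizes for the ligands changed little, between -1.86 and -1.57 for *Jag1* and between -1.42 and -1.24 for *Dll4* over all 8 libraries left out in turn, while *Hes1* ran from -1.67 to -0.62 and *Rbpj* from -1.55 to -0.88. The *Hes1* call was also lost without the filter (adjusted p = 0.0605) and with the WT libraries alone (0.0531). *Notch1* hardly moved in FPKM (-0.08, SE 0.23) and turned to 0.45 after that scaling (adjusted p = 0.308). *Nrarp*, below the filter, had a difference of -0.94 (SE 0.15, adjusted p = 0.0262), and -2.35 (adjusted p = 0.0299) with 0.1 FPKM added. With 1 FPKM added it lay between -1.07 and -0.81 without single libraries, 5 of which ended the call (E8.5 WT replicate 1 and each E9.5 library). *Heyl* was the only member of the 10 whose WT libraries were higher at E9.5 with no overlap (0.24, SE 0.03, adjusted p = 0.0262, under the 1.5-fold limit on this scale, and 1.05 with 0.1 FPKM added, where it was called with adjusted p = 0.0365).

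In cKO hearts *Jag1* was lower at E9.5 by a log2 difference of -1.20 (SE 0.25, adjusted p = 0.0183) and *Rbpj* by -1.49 (SE 0.30, adjusted p = 0.0173). These were 2 of the 7 tested genes, and 28.5% of all tested genes were called lower (2857, with 205 higher), with the median gene at -0.64. Median-ratio scaling left -0.81 and -0.92, neither of them called (77 lower and 400 higher among all tested genes), and without E9.5 cKO replicate 1 or 2 the count was 0 as well. In those fits the count of lower genes among all 10018 was 0 and 1, while over all libraries left out in turn *Jag1* stayed between -1.41 and -0.98 and *Rbpj* between -1.66 and -1.32. *Dll4* differed by 0.02 (SE 0.29) and *Hey1* by 0.01 (SE 0.46) between the stages in cKO, against -1.33 and -0.91 in WT, the latter not called (adjusted p = 0.121). After scaling by median ratios *Dll4* stood at 0.62 in cKO (adjusted p = 0.171) and -0.55 in WT, and *Hey1* at 0.71 (adjusted p = 0.342) and 0.03. The stage comparisons share their libraries with the genotype comparisons, so they are not independent of them. Muscle markers moved with stage, and their part in these values was not tested: the 15 cardiomyocyte markers in WT hearts reached sums of 27120 and 44747 FPKM at E8.5, then 63805 and 62559 at E9.5.

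The wider pathway was read from 84 genes in 8 roles, the 10 included, of which 54 passed the filter. In cKO against WT, 0 of the 54 were called in either direction at E8.5 and at E9.5, and 4 at each stage had an unadjusted p under 0.05, beside 7.81% of all tested genes at E8.5 and 15.7% at E9.5. Their median difference was -0.28 at E8.5, beside -0.28 for all tested genes, and -0.001 at E9.5, beside -0.07. At E8.5, 25 of the 54 were lower with no overlap and 0 higher, beside 40.1% of all tested genes lower. Without the E8.5 cKO library rich in decidual RNA, the E8.5 medians were -0.31 for the 54 and -0.24 for all tested genes, -0.17 for receptor cleavage, -0.33 for the sugar-adding genes, -0.42 for corepressors and -0.57 for targets, the roles described next. At E9.5, 11 were higher and 13 lower, beside 21.0% and 31.1% of all tested genes.

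Among the other ligands, *Dlk1*, a Delta-like protein without the receptor-activating domain, had the highest mean of its role over the 8 libraries, which rests on E9.5 WT replicate 1. In all 4 E8.5 libraries it lay between 2.10 and 3.83 FPKM, below *Dll4*. It measured 47.8 and 7.45 FPKM in WT and 4.0 and 3.38 in cKO hearts at E9.5 (-2.12, SE 0.70, unadjusted p = 0.0161, adjusted p = 0.209), so that a single WT library set most of the size. *Dll1*, *Dll3*, *Jag2* and *Dlk2* were below the filter. Of the 4 receptors 2 were tested, *Notch1*, with the highest mean over the 8 libraries, and *Notch3*, the receptor of smooth muscle and pericytes. *Notch3* exceeded *Notch1* in E8.5 WT replicate 1 (2.10 FPKM) and E8.5 cKO replicate 1 (1.39). It measured 0.965 and 0.667 FPKM in WT and 1.35 and 1.03 in cKO hearts at E9.5, apart but not called (0.27, SE 0.29, adjusted p = 0.728). The endothelial receptor *Notch4* lay between 0.119 and 0.299 FPKM in all libraries.

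Of the 10 genes for receptor cleavage 9 were tested. At E8.5, 5 of them were lower in cKO with no overlap (40.1% of all tested genes were), and their median difference was -0.46, beside -0.28. At E9.5, 2 were higher (21.0%), with a median of 0.03, beside -0.07. *Psenen*, a subunit of gamma-secretase, was the most abundant, with 121 and 112 FPKM in WT and 110 and 62.2 in cKO hearts at E8.5, and 71.3 and 57.1 in WT and 68.0 and 62.5 in cKO hearts at E9.5. Of the genes that add sugars to the receptor 4 of 5 were tested and *Poglut1*, which adds glucose, was the highest (mean 11.6 FPKM). Their median difference was -0.31 at E8.5 and -0.18 at E9.5.

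Among 15 genes that move or degrade ligands and receptors, 11 were tested. *Dtx3*, a Deltex-family ubiquitin ligase, measured 8.46 and 13.8 FPKM in WT and 4.97 and 6.00 in cKO hearts at E8.5 (-0.87, SE 0.31, unadjusted p = 0.0226, and -0.99 without the library rich in decidual RNA). *Neurl1a*, a ubiquitin ligase of ligands, measured 1.02 and 2.53 FPKM against 0.467 and 0.778 (-0.72, SE 0.31, unadjusted p = 0.0479, and -0.86 without that library). Both had an adjusted p of 0.590. *Nedd4*, the most abundant of the role (mean 106 FPKM), overlapped at E8.5. At E9.5 it measured 85.6 and 197 FPKM in WT and 79.3 and 59.0 in cKO hearts, apart but not called (-0.92, SE 0.42, adjusted p = 0.336). In the nuclear complex 5 of 10 genes were tested, and at E9.5 3 of these were lower in cKO with no overlap (31.1% of all tested genes were), *Rbpj* among them. *Snw1*, the most abundant, measured 26.6 and 27.0 FPKM in WT and 14.6 and 23.2 in cKO hearts at E9.5 (-0.52, SE 0.30, adjusted p = 0.459). Of 16 corepressor genes 12 were tested, with medians of -0.27 and 0.02. *Hdac1*, a histone deacetylase, was the highest, at a mean of 107 FPKM.

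Of 17 target genes 8 passed the filter. At E8.5, 6 of the 8 were lower with no overlap, against 40.1% of all tested genes, and their median was -0.63, beside -0.28 for all genes. At E9.5, 1 was higher and 4 lower, against 21.0% and 31.1%. The 1 that was higher was *Hbegf*, a growth factor of the EGF family that acts in valve formation. It measured 2.67 and 3.18 FPKM in WT and 6.31 and 5.66 in cKO hearts at E9.5 (0.83, SE 0.25, unadjusted p = 0.0107, adjusted p = 0.177), and at E8.5 7.14 and 6.67 in WT and 5.76 and 3.81 in cKO. As for *Dll4*, its cKO libraries lay below WT at E8.5 and above WT at E9.5. *Snai1*, a driver of the endocardial cushion transition, measured 6.44 and 6.44 FPKM in WT and 1.53 and 1.54 in cKO hearts at E9.5 (-1.55, SE 0.66, unadjusted p = 0.0464, adjusted p = 0.306). At E8.5 its WT libraries were 6.15 and 4.56 FPKM and its cKO libraries 1.59 and 13.3, on both sides of WT (-0.05). The 13.3 FPKM belonged to the library rich in decidual RNA, and without it the E8.5 difference was -1.285, from cKO replicate 1 alone. *Hes6*, a HES relative that is not a direct Notch effector, was kept on the target list and was its most abundant gene (mean 25.4 FPKM). It is among the 6 lower at E8.5, so that count and the medians do not describe direct targets only.

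**Figure D5:**
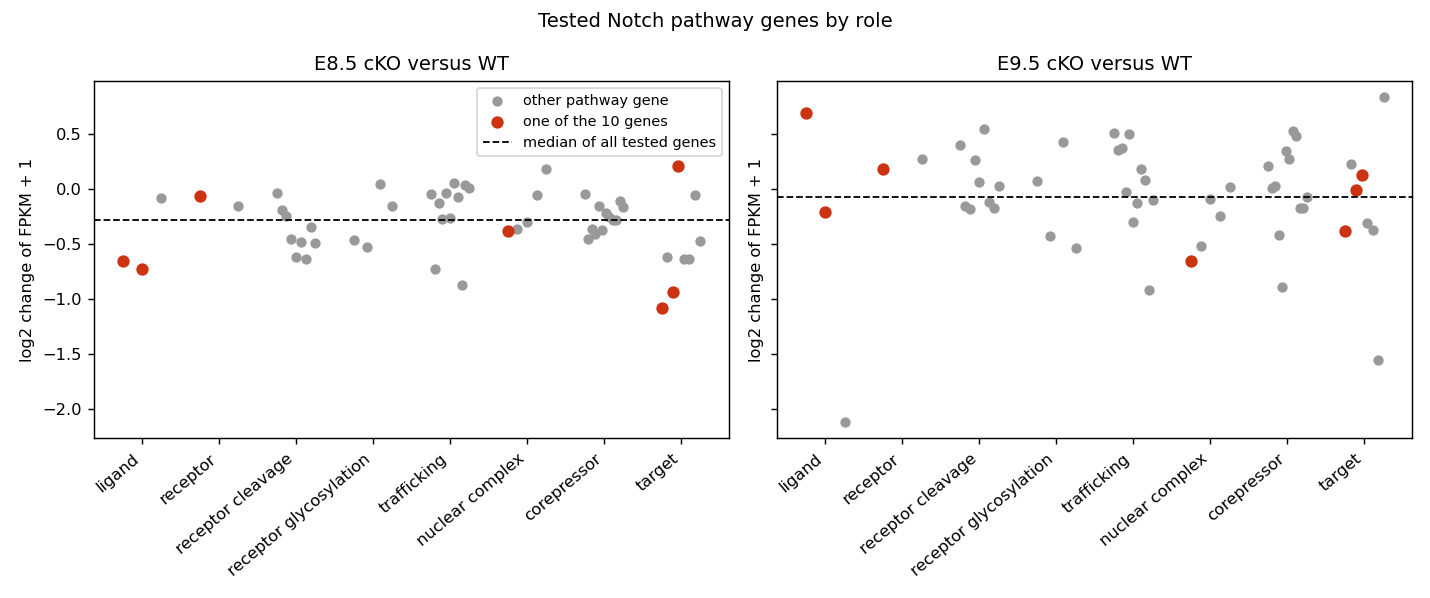
Log2 change of FPKM + 1 in cKO over WT (vertical axis) for the 54 tested pathway genes by role, at E8.5 (left) and E9.5 (right). Red points are the 7 tested genes among the 10, grey points the other pathway genes, and the dashed line the median of all tested genes. The lowest point at E9.5 is *Dlk1* (-2.12) and the highest *Hbegf* (0.83).

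Genes whose levels followed the members of the 10 most closely, *Notch1* left out, were listed by Pearson's r of log2(FPKM + 1) over the 8 libraries after median-ratio scaling. These 8 points share stage, genotype and library, so the values are descriptions. The closest to *Dll4* were *Cyb5r1* (r = 0.974) and *Dusp4* (0.969), and to *Jag1* *Rem1* and *Heatr5b* (both 0.974). *Notch2* was closest to *Bmp1* (0.940). *Rbpj* was closest to *Rspry1* (0.980) and *Hes1* to *Apela* (0.972), the gene of a peptide hormone of early heart development. *Hey1* was closest to *Map1lc3b* (0.963), *Hey2* to *Tdrd7* (0.931), *Heyl* to *Hmga1* (0.986) and *Nrarp* to *Nicn1* (0.946). Among the 10 themselves, the pair with the highest r was *Jag1* and *Rbpj* (0.79), and the lowest was *Jag1* and *Notch1* (-0.92). *Dll4* and *Nrarp* had an r of 0.56, and *Hey1* and *Hey2* one of -0.67.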

How the data were processed

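Total RNA of embryonic hearts was amplified by a Smart-seq protocol, made into libraries with a SMARTer kit and sequenced. The submitters' processing notes name BWA and mm9, and the program that made the FPKM table is not given in the sources used here. The deposited values are FPKM calculated by the authors for each library, 8 columns in all, with 0 further per-sample columns. Its gene loci were those of GRCm38, since 91.7% of 9515 tested genes started within 1000 bp of their RefSeq start there. Positions are given from the table, counted from 1. The 24930 entries were reduced to 24385 features by keeping the entry with the highest mean for the 285 symbols listed more than once and by keeping 27 date-like symbols apart.

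The 10018 genes averaging 1 FPKM or more were put on a log2(FPKM + 1) scale and fitted by limma (3.58.1, under R 4.3.3). All 4 groups entered a single linear model, with a mean-variance trend in the empirical Bayes step. Tests were two-sided. The pseudocount understates changes of low genes. An exact permutation test on 4 libraries has a smallest two-sided p of 0.333, so none was run. The procedure was tested on simulated data. Fragments of *Heyl* and *Nrarp* were recovered as whole steps of FPKM (tolerance 0.08), and those of the other genes were estimated from the transcript length and a library of 12900000 fragments (interquartile range 12700000 to 13200000 over 220 genes). Intervals are 95% exact Poisson intervals.

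The 10 genes, the gene lists and the tests were chosen with earlier results of these data known, so no count over them is independent support. Named in the text were all 10 genes, *Dgcr8*, other pathway genes with an unadjusted p under 0.05 in cKO against WT, the most abundant gene of each role, and the genes most correlated with each of the 10, except that the one for *Notch1* is not reported here. *Dll1*, *Dll3*, *Jag2*, *Dlk2*, *Notch3*, *Notch4*, *Foxd3*, *Uncx* and *Tbx2* were named in addition, after their values were seen. Cell type lists were compiled from general knowledge, and somite, erythroid and yolk sac endoderm lists were summed as well. Alternatives covered the pseudocount, the filter, scaling, the model, a replicate block and leaving out each library.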

Additional observations from a re-analysis of the deposited data

Results flagged for a closer look

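The cKO libraries of *Dll4* all lay below WT at E8.5 and all above WT at E9.5. The difference between the stage effects was 1.349 on the log2 scale (SE 0.404, limma unadjusted p = 0.0103, adjusted p = 0.551), and it did not pass the correction. *Nrarp* shared both directions of cKO against WT, though not the order of the libraries otherwise. Its difference was 0.771 (SE 0.206, limma unadjusted p = 0.00916, adjusted p = 0.647 without the filter on low genes), which did not pass either and rests on 4 to 48 fragments per library. Groups of 2 libraries were too small for Dixon's test for an outlying sample.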

How the results depend on the processing

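The number of called genes among the 10 stayed at 0 under the alternatives run in cKO against WT at E8.5, at E9.5 and in the interaction, with 1 exception: *Hes1* was called lower at E8.5 (-1.61) without E8.5 WT replicate 2 and without the filter, a fit added after seeing the data. Same-numbered replicates did not vary together (correlations of -0.004, 0.017, -0.116 and -0.047 in the 4 comparisons, from 2 pairs each), so the numbers were not taken as pairs. With a replicate block the counts were 0, 0, 4 and 2, as without it, and with crossed numbers in WT (added after seeing the data) 4. In WT E9.5 against E8.5 the count of 4 became 0 after scaling by median ratios or by quantiles and 1 with a filter of 5 FPKM, which left 2 of the genes, and ranged from 0 to 4 without single libraries. In cKO E9.5 against E8.5 the count of 2 became 0 with those scalings and with library weights and 1 with that filter, and ranged from 0 to 3 without single libraries. The E8.5 and E9.5 medians of the tested genes relative to the median gene ranged from -0.373 to -0.159 and from -0.139 to 0.136 without single libraries, and the E9.5 median was -0.164 with the 5 FPKM filter. Over all tested genes, the count called in cKO against WT was 1 at E8.5 (0 to 3 under the alternatives on all libraries) and 18 at E9.5 (0 with the libraries of the 2 groups only, 79 higher and 63 lower with library weights). Without single libraries, 0 to 20 were higher and 0 to 46 lower at E8.5, and 0 to 67 higher and 0 to 20 lower at E9.5. The count lower between the WT stages was 4683, and 69 and 27 with median-ratio and quantile scaling, 6286 with scaling to loci of at least 300 bp, 2516 with the 5 FPKM filter, and 28, 184, 48 and 2204 without the WT libraries in turn. Between the cKO stages it was 2857, and 77, 49 and 3566 with the same scalings, 1781 with that filter, 1393 with the libraries of the 2 groups only, 1098 with no filter, 1553 with no filter and 0.1 FPKM added, and 2 with library weights, 0 and 1 without the E9.5 cKO libraries, and 1587 to 2740 without others. Among the differences given above, median-ratio and quantile scaling reversed *Notch1* at E8.5 (0.11 with median ratios, 0.18 with quantiles), *Hey1* at E9.5 (0.10 and 0.11), and *Notch1* (0.45 and 0.71) and *Hey1* (0.0304 and 0.0266) between the WT stages. Scaling to loci of at least 300 bp reversed *Dll4* (-0.0686) and *Hey1* (-0.10) between the cKO stages. Without single libraries the sign turned for *Notch2* (-0.147 to 0.0043 at E8.5, -0.206 to 0.0248 at E9.5, 0.0010 without E9.5 cKO replicate 2, fits added after seeing the data), the *Hey2* to *Hey1* ratio at E9.5 (-0.495 to 0.761), *Notch1* (-0.173 to 0.0463) and *Hey2* (-0.30 to 0.72) at E8.5, *Hey1* (-0.47 to 0.45) and *Hey2* (-0.0866 to 0.333) at E9.5, and *Dll4* (-0.35 to 0.39) and *Hey1* (-0.45 to 0.47) between the cKO stages. The cause of these changes was not tested.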

Other observations

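Lists of cells outside the heart wall varied widely between replicates. The 10 primitive erythroid markers together reached 7787 and 23836 FPKM in WT and 35507 and 9751 in cKO hearts at E8.5, then 14430 and 29569 in WT and 39588 and 29104 in cKO hearts at E9.5. At E9.5, 4 of the 10 were higher in cKO with no overlap, and at E8.5 0 were. Among all tested genes 21.0% were higher in this sense at E9.5. The 10 yolk sac endoderm markers together reached 782 and 2691 FPKM in WT and 7043 and 2053 in cKO hearts at E8.5, then 6853 and 5106 in WT and 4424 and 6836 in cKO hearts at E9.5. The 8 somite markers stayed between 0.23 and 2.13 FPKM in sum, with *Uncx* at 0 in every library. *Tbx2*, a repressor of the atrioventricular canal on the target list, was below the filter and measured 0.153 and 0.133 FPKM in WT and 0.401 and 0.374 in cKO hearts at E9.5, and 0.365 and 0.663 against 0.872 and 0.867 at E8.5, apart and higher in cKO at both stages. It was chosen after its values were seen and was not tested.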
